A study of Rattus norvegicus with 6 samples.

Results

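The genes of fatty acid degradation and the peroxisome proliferator-activated receptors (PPARs) were examined in calcifying vascular smooth muscle cells (VSMCs) from rat. Members were the genes that the deposited annotation assigns to the KEGG fatty acid degradation map, without Acat2, together with any of Ppara, Ppard, Pparg, Ppargc1a, Pdk4, Cpt2 and Cd36 that the table lists. This gave 37 of the 13526 genes in the table, of which 35 are in the KEGG map and 2, Ppara and Ppard, were taken by symbol only. Pparg, Ppargc1a, Pdk4 and Cd36 were not analysed here.

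Primary wild-type VSMCs of the rat thoracic aorta were cultured in osteogenic media (OM), which contain 10 mM β-glycerophosphate and 3.5 mM CaCl2 and drive mineral deposition. The OM plus EMPA group (3 libraries) also received 1 μM empagliflozin, an inhibitor of the glucose cotransporter SGLT2, and the OM group (3 libraries) did not. Sample titles and column names carry the abbreviation Pi, which elsewhere in the study means a separate phosphate medium, and the treatment label, which names osteogenic differentiation, was followed. The labels give 5 days of culture, and the text describing the sequencing names a shorter time. Whether the 3 libraries within each group represent distinct cultures or distinct animals is not stated, and each p-value therefore reflects variation among these libraries alone, which may be technical.

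Fatty acids enter oxidation in fixed steps. Acyl-CoA synthetases join them to coenzyme A, carnitine palmitoyltransferases carry long chains into mitochondria, and a cycle of dehydrogenases, hydratases and thiolases then shortens the chain and releases acetyl-CoA. Peroxisomes run a similar cycle on very long and branched chains. PPARα and PPARδ are nuclear receptors that bind fatty acids and, as partners of the retinoid X receptors, switch on many of these genes, including those of the carnitine shuttle.

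Expression is given as TPM, a transcript abundance corrected for length. TPM sum to 997954 to 998293 in each library, so the sequencing depth behind them is unknown. After genes averaging under 1 TPM had been set aside, limma was run on log2(TPM + 1) for the remaining 12564, and a gene was called higher or lower at an adjusted p of at most 0.05 over all of them. Log2 fold changes are OM plus EMPA minus OM and understate the change of genes with low TPM. Over all tested genes, 259 were higher (2.06%) and 611 lower (4.86%), so that 29.8% of calls were higher, against 50.8% of calls (393 higher, 380 lower) after median-ratio scaling of the libraries. The 13 mitochondrially encoded genes held 10.4 ± 0.332% of TPM in the OM plus EMPA group and 8.41 ± 0.898% in the OM group (SD, n = 3 each). Of 7 smooth muscle markers 6 had a row, all with a mean of at least 1 TPM, and their sum was 2478 to 2924 TPM in OM plus EMPA libraries and 1756 to 2158 TPM in OM libraries. Tagln carried most of that sum (1942 to 2251 TPM in OM plus EMPA and 1412 to 1700 TPM in OM libraries), while Myh11 was at 13.7 to 18.4 TPM in OM plus EMPA and 16.4 to 20.9 TPM in OM libraries. None of 5 endothelial markers had a row, and 1 of 5 adipocyte markers did (Fabp4, 2.49 to 4.38 TPM in OM plus EMPA and 2.99 to 3.74 TPM in OM libraries). Of 6 macrophage and leukocyte markers 2 had a row, Cd68 and Cd14, summing to 30.1 to 39.99 TPM in OM plus EMPA and 40.5 to 44.3 TPM in OM libraries. Cd68 was at 5.1 to 9.52 TPM in OM plus EMPA and 12.8 to 14.9 TPM in OM libraries. Cd14 overlapped between groups, at 20.6 to 32.1 TPM in OM plus EMPA and 26.9 to 29.55 TPM in OM libraries. In bulk RNA fewer cells of a type and less RNA per cell cannot be told apart. The part of the mitochondrial share in the results below was tested by rescaling without those transcripts, and the part of the marker levels was not tested.

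Of the 37 members, 34 passed the filter on low values. Acsl3, a long-chain acyl-CoA synthetase, and Ppard, which encodes PPARδ, were higher with empagliflozin, Aldh3a2, which encodes fatty aldehyde dehydrogenase, was lower, and 31 members were not called. The share of members called was 8.82%, beside 6.92% of all tested genes. By direction it was 5.88% higher and 2.94% lower. Summed over the members, the level was 2142, 2035 and 2079 TPM in OM plus EMPA libraries, against 2172, 2060 and 2140 TPM in OM libraries, and these ranges overlap.

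Differences among the members were small. Their log2 fold changes lay between -0.32 and 0.29 with a median of -0.06, against a median of -0.05 over all tested genes. Of the 34 tested members 12 were above 0 and 22 below 0, beside 65.1% of all tested genes below 0. The 95% interval of every tested member stayed within a 1.5-fold change in either direction on the log2(TPM + 1) scale, and 32 of the 34 stayed within 0.5 on it. With a pseudocount of 0.1 this held for 33 of 34, the exception being Ppara (log2 fold change -0.27, 95% interval -0.85 to 0.31). Intervals without 0, which are those with an unadjusted p under 0.05, were found for 12 of the 34 members, 9 below it and 3 above it, beside 3024 of all 12564 tested genes (24.1%). In 3 members (8.82%) all OM plus EMPA libraries were above all OM libraries, beside 7.85% of all tested genes, and in 8 (23.5%) all were below, beside 22.5%.

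**Figure D1:**
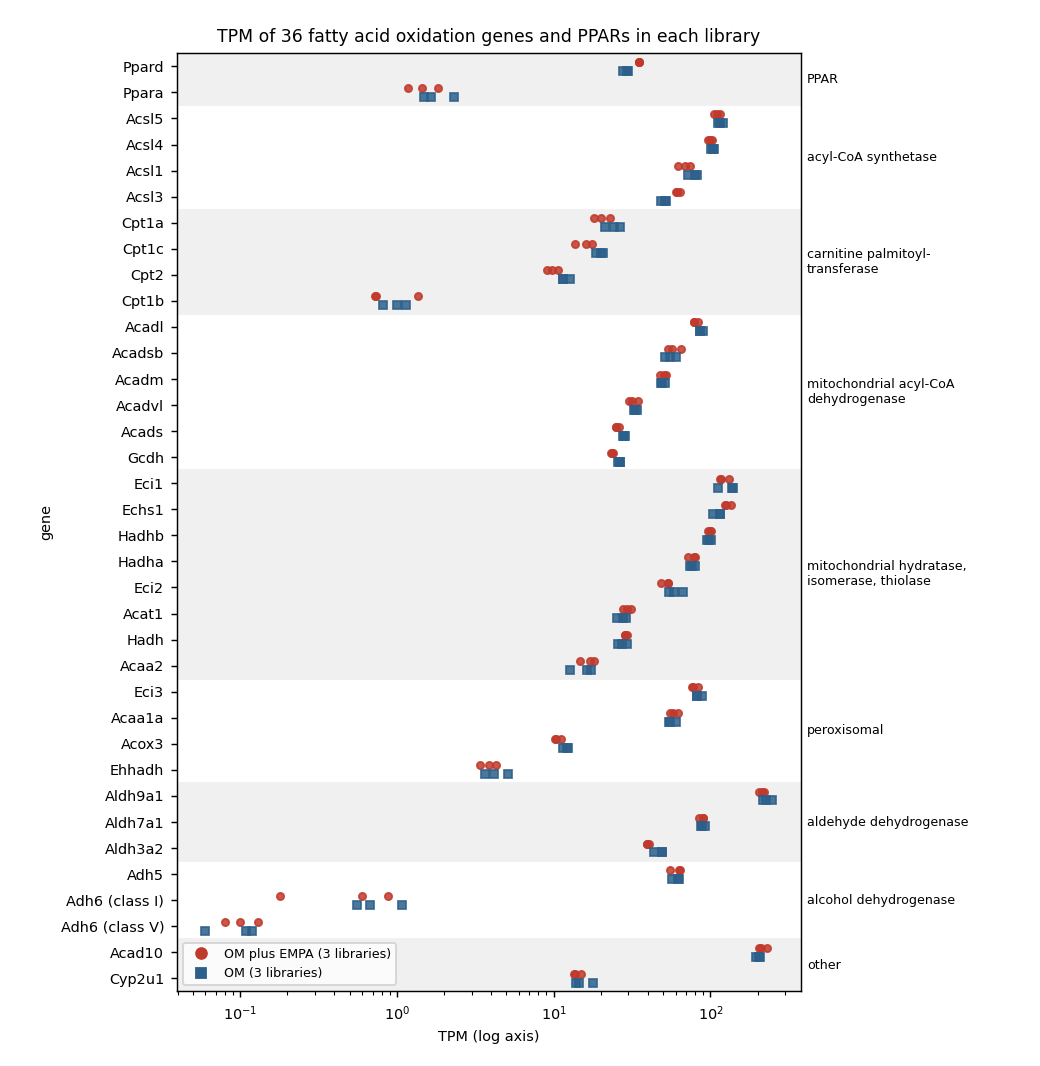
TPM of 36 of the 37 members in each library on a log axis, grouped by role, with OM plus EMPA libraries as red circles and OM libraries as blue squares (3 each). Levels ran over more than 3 orders of magnitude between genes, from a mean of 0.10 TPM for the class V Adh6 row to 222 TPM for Aldh9a1, while most groups of 3 points overlap within a gene.

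PPARδ was the more abundant of the PPARs measured. Ppard was at 35.1, 35.1 and 35.2 TPM in OM plus EMPA libraries, against 29.7, 29.3 and 27.8 TPM in OM libraries, and lies on chromosome 20 from 6298785 to 6363968 of the authors' table (plus strand, build not given in the sources used here). The OM plus EMPA libraries nearly coincide and all lie above the OM libraries. Ppard rose by 0.27 on the log2 scale (SE 0.05, 95% interval 0.16 to 0.39, adjusted p = 0.0191 from limma). The call was lost when OM plus EMPA replicate 1, 2 or 3 was omitted (adjusted p = 0.06, 0.0664 and 0.0601 from limma) and when OM replicate 3 was (adjusted p = 0.0699 from limma), at log2 fold changes of 0.25 to 0.27. Ppara, which encodes the PPAR of liver and oxidative tissue, was at 1.45, 1.83 and 1.18 TPM in OM plus EMPA libraries, against 2.30, 1.65 and 1.49 TPM in OM libraries. The groups overlap, and the log2 fold change of -0.18 had an interval of -0.55 to 0.20 (adjusted p = 0.55 from limma).

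**Figure D2:**
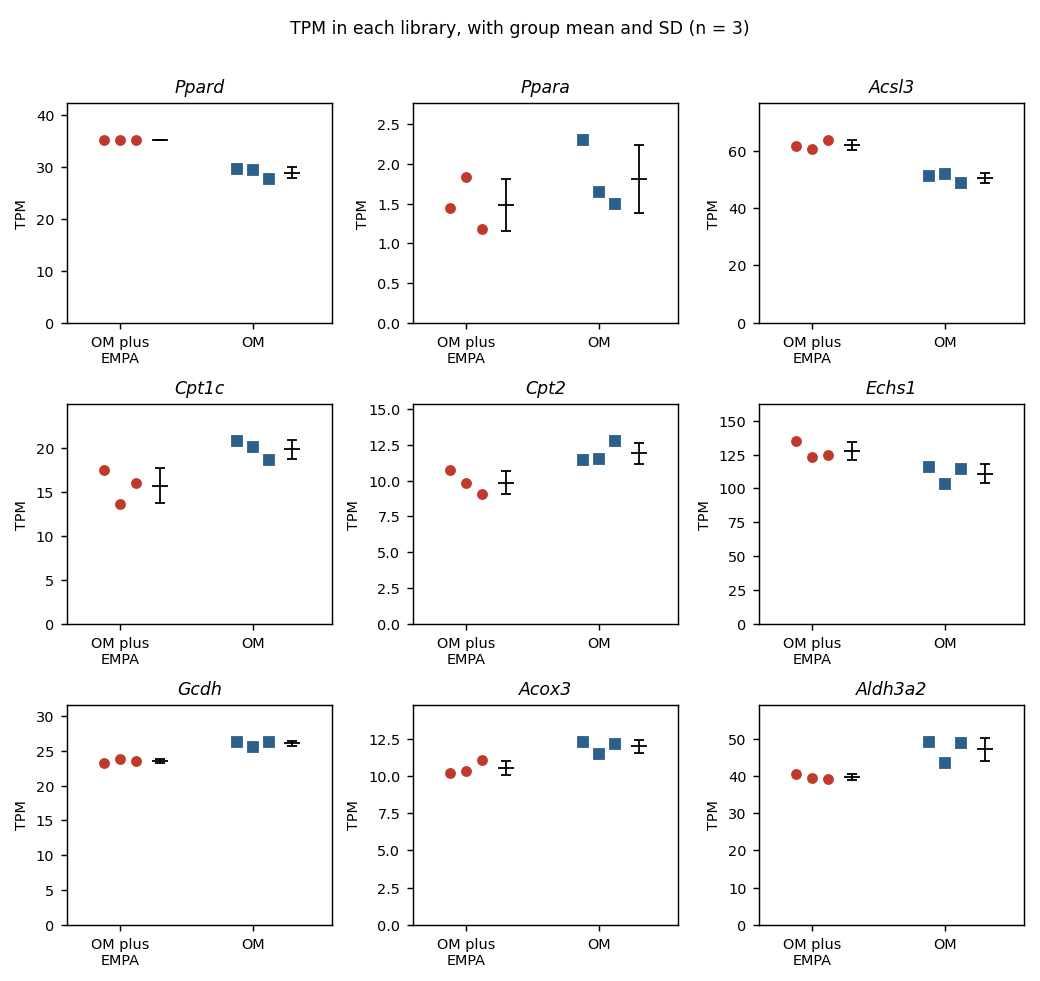
TPM of Ppard, Ppara, Acsl3, Cpt1c, Cpt2, Echs1, Gcdh, Acox3 and Aldh3a2 in each library (OM plus EMPA circles left, OM squares right), with the group mean and SD (n = 3) beside the points. Of these 9 genes only Ppara has overlapping groups, and each axis starts at 0. The genes shown were called, were added by symbol or had the smallest p of their role, so this separation largely follows from the choice. Of all 34 tested members, 3 were higher and 8 lower without overlap.

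Of the 4 acyl-CoA synthetases, which activate fatty acids, Acsl3 was called and the other 3 were not. Over all tested genes 6.92% were called, and 2.06% were called higher. Acsl3, an enzyme of the endoplasmic reticulum and of lipid droplets, was at 61.5, 60.4 and 63.7 TPM in OM plus EMPA libraries, against 51.1, 51.7 and 48.6 TPM in OM libraries. The groups do not overlap. Acsl3 rose by 0.29 (SE 0.05, 95% interval 0.18 to 0.39, adjusted p = 0.0128 from limma). Among the 13 alternatives tried, only leaving out OM replicate 3 ended the call (adjusted p = 0.0513 from limma). It lies on chromosome 9 from 80115112 to 80164627 (plus strand) and overlaps Utp14b (4.34 TPM) on the same strand. Acsl5, the mitochondrial form, was at 115, 110 and 105 TPM in OM plus EMPA libraries, against 120, 114 and 112 TPM in OM libraries. Acsl4, which prefers arachidonic acid, was at 103, 96.9 and 98.7 TPM in OM plus EMPA libraries, against 103, 100.2 and 105 TPM in OM libraries. Both overlap between groups and were not called, and neither was Acsl1, the form of oxidative tissue and fat (68.7 ± 6.12 TPM in OM plus EMPA and 77.8 ± 4.83 TPM in OM libraries, SD, n = 3 each). Within the summed TPM of the 4 synthetases Acsl3 held 17.7%, 18.3% and 18.6% in OM plus EMPA libraries, against 14.4%, 15.3% and 14% in OM libraries. This was 18.2 ± 0.48% against 14.6 ± 0.658% (SD, n = 3 each). The 2-sided exact permutation test gave p = 0.1, the smallest that 3 against 3 libraries allow (adjusted p = 0.2 over the 2 family shares compared). Acsl3 had the smallest limma p of the 4 and already separated the groups in these values, so its share adds no separate support.

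The promoters of the 2 called enzymes, Acsl3 and Aldh3a2, are shown because these genes moved in opposite directions. Each line holds the 250 bases before the RefSeq start (build GRCr8), 5′ to 3′ on the gene's strand, at chr9:87563351-87563600 (plus strand) for Acsl3 and chr10:46448336-46448585 (minus strand) for Aldh3a2. Capitals mark the CCAAT box, a binding sequence of the factor NF-Y, which was looked for after the sequences had been seen.
Acsl3: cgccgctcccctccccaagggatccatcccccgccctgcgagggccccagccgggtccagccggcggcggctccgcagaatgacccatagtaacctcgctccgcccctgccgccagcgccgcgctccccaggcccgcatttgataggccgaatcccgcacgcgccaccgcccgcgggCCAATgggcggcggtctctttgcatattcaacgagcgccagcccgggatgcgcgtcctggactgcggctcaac
Aldh3a2: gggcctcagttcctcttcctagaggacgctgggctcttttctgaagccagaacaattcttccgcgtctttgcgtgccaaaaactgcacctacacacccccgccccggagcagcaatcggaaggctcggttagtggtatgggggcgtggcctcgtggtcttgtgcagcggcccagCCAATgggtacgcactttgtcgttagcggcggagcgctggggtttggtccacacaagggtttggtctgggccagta
Each holds 1 CCAAT box, counted as CCAAT or its reverse complement ATTGG. The box was in these 250 bases of 14 of the 30 member promoters that RefSeq gave (46.7%), against 34% of 33469 promoters of all genes, and a match is a description of the letters only.

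No carnitine palmitoyltransferase gene passed the threshold. Cpt1a and Cpt1b at the outer mitochondrial membrane and Cpt2 at the inner membrane move long chains into the matrix, and Cpt1c is of the same family. Log2 fold changes of the 3 tested genes, Cpt1a, Cpt1c and Cpt2, were -0.32 to -0.24, all below 0, as were 65.1% of all tested genes. At an unadjusted p under 0.05 in limma there were 2 of 3, where 24.1% of all tested genes passed. Cpt1c, the form found mainly in neurons, was at 17.5, 13.6 and 16.1 TPM in OM plus EMPA libraries, against 20.8, 20.1 and 18.6 TPM in OM libraries. Its groups do not overlap, and its log2 fold change was -0.32 (SE 0.09, 95% interval -0.54 to -0.10, adjusted p = 0.0877 from limma). Cpt2 was at 10.7, 9.82 and 9.08 TPM in OM plus EMPA libraries, against 11.5, 11.5 and 12.8 TPM in OM libraries. These do not overlap either (log2 fold change -0.25, SE 0.08, 95% interval -0.44 to -0.05, adjusted p = 0.125 from limma). Cpt1a, the liver form and a PPAR target, was at 20.2 ± 2.39 TPM in OM plus EMPA and 24.0 ± 2.59 TPM in OM libraries (SD, n = 3 each) and was not called, and Cpt1b, the muscle form, fell under the filter (0.730 to 1.37 TPM in OM plus EMPA and 0.820 to 1.14 TPM in OM libraries). Cpt1c held 42.6 ± 0.944% of the summed TPM of the 3 Cpt1 genes in OM plus EMPA and 44.3 ± 3.47% in OM libraries (SD, n = 3 each, 2-sided exact permutation p = 0.6, adjusted p = 0.6).

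Of the 6 mitochondrial acyl-CoA dehydrogenases, which take the first step of the cycle, 0 were called by limma and 3 had an unadjusted p under 0.05 (24.1% of all tested genes). Their log2 fold changes were -0.14 to 0.06. In Gcdh, which acts in lysine and tryptophan breakdown, the level was 23.3, 23.8 and 23.5 TPM in OM plus EMPA libraries, against 26.3, 25.6 and 26.3 TPM in OM libraries. The libraries of each group lie close together and the groups do not overlap, at a log2 fold change of -0.14 (SE 0.05, 95% interval -0.26 to -0.03, adjusted p = 0.127 from limma). It overlaps Farsa (61.4 TPM) on the opposite strand, and whether counting used the strand is not stated. Acadl, the long-chain enzyme, was at 78.9, 78.4 and 83.0 TPM in OM plus EMPA libraries, against 85.6, 85.5 and 89.2 TPM in OM libraries (log2 fold change -0.11, adjusted p = 0.163 from limma), again without overlap. Acads, the short-chain enzyme, was the third whose groups did not overlap (25.4 ± 0.766 TPM in OM plus EMPA and 28.0 ± 0.48 TPM in OM libraries, SD, n = 3 each). All 3 were lower, and 22.5% of all tested genes were lower without overlap. After median-ratio scaling the log2 fold changes were -0.086 for Gcdh, -0.080 for Acads and -0.056 for Acadl. Acadm and Acadvl, the medium- and very long-chain enzymes, and Acadsb, which acts on branched chains, overlapped between groups.

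**Figure D3:**
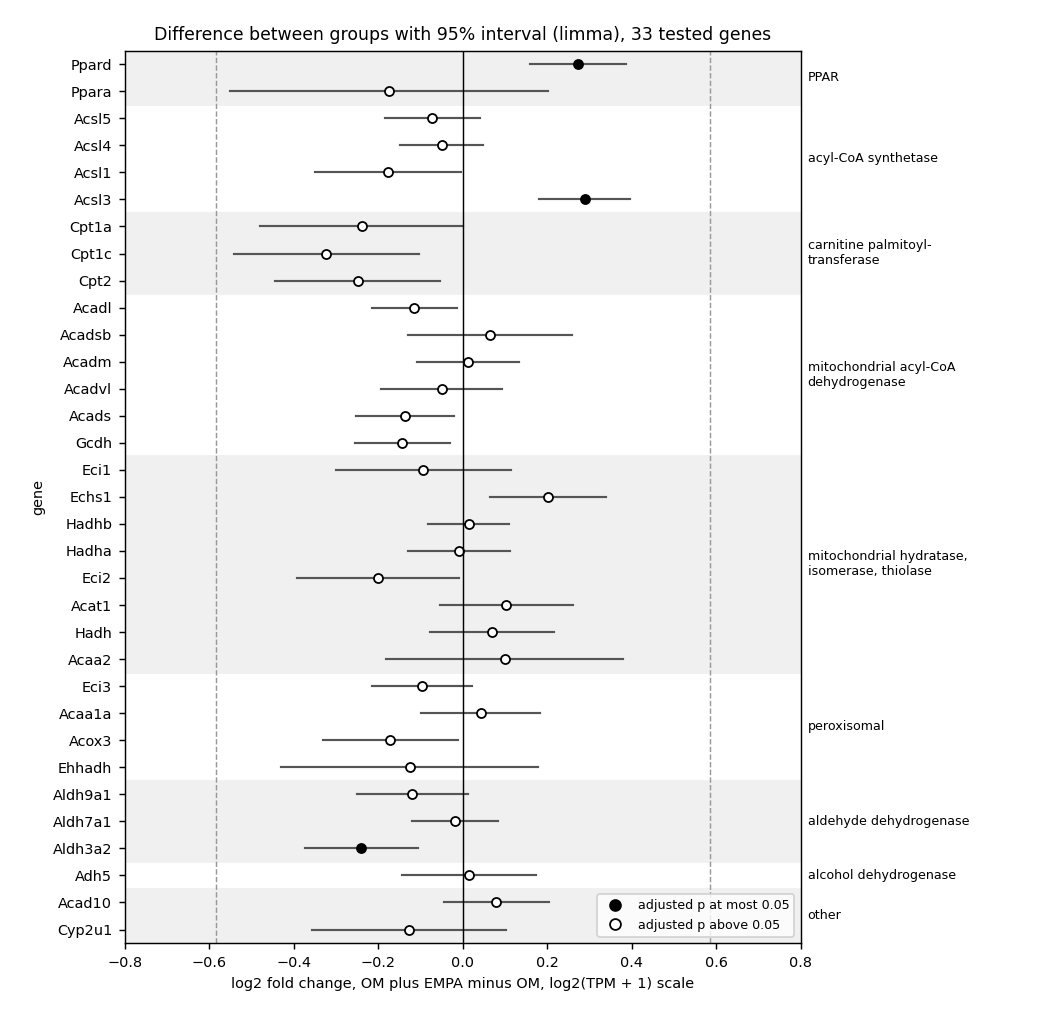
Log2 fold change (OM plus EMPA minus OM, on the log2(TPM + 1) scale) with its 95% interval for 33 of the 34 tested members by role, filled where the adjusted p from limma was at most 0.05 (Acsl3, Ppard and Aldh3a2). Dashed lines mark 1.5-fold in either direction, and all 33 intervals drawn lie between them.

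The later steps of the mitochondrial cycle hydrate, oxidise and cleave the chain, and 0 of the 8 genes were called by limma, with 2 at an unadjusted p under 0.05, a share close to the 24.1% of all tested genes. Echs1, the short-chain enoyl-CoA hydratase, was at 135, 123 and 125 TPM in OM plus EMPA libraries, against 116, 103 and 114 TPM in OM libraries. Every OM plus EMPA library is above every OM library, and the log2 fold change was 0.20 (SE 0.06, 95% interval 0.06 to 0.34, adjusted p = 0.0896 from limma). Echs1 passed the threshold after median-ratio scaling (adjusted p = 0.0389 from limma) and without mitochondrially encoded transcripts (adjusted p = 0.0493 from limma). It did not pass with any single library left out (adjusted p = 0.121 to 0.198 from limma) or without the variance trend (adjusted p = 0.16 from limma). Echs1 overlaps Paox (12.7 TPM) on the opposite strand. Eci1, which shifts double bonds of unsaturated chains, was at 131, 115 and 117 TPM in OM plus EMPA libraries, against 137, 112 and 139 TPM in OM libraries, with overlapping groups. Hadhb, a subunit of the mitochondrial trifunctional protein, was at 96.8, 101 and 98.9 TPM in OM plus EMPA libraries, against 97.6, 101 and 95.7 TPM in OM libraries. The other subunit, Hadha, was at 76.4 ± 4.08 TPM in OM plus EMPA and 76.8 ± 2.32 TPM in OM libraries (SD, n = 3 each), and its ratio to Hadhb was 0.772 ± 0.0428 in OM plus EMPA and 0.784 ± 0.0396 in OM libraries. Apart from Echs1, Eci2 was the only gene of these 8 whose groups did not overlap. Without overlap, 7.85% of all tested genes were higher and 22.5% lower. Eci2 was at 51.8 ± 3.05 TPM in OM plus EMPA and 59.9 ± 6.59 TPM in OM libraries (SD, n = 3 each). Its assembled locus on chromosome 17 (29850917 to 29943949) encloses Eci3 (29921966 to 29943949), so reads may be shared between them. Hadh, Acat1 and Acaa2, which oxidise or cleave the chain, overlapped between groups.

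Hadha and Hadhb are transcribed in opposite directions from a shared stretch, shown here because both subunits are needed in one protein. The ratio of their levels differed between groups by less than its spread. This follows from the log2 fold changes of -0.009 for Hadha and 0.014 for Hadhb. A part of the shared stretch in these levels was not tested. The RefSeq starts (build GRCr8) lie 300 bases apart, and the 250-base upstream windows share the 200 bases at chr6:31907551-31907750, given on the Hadha strand (plus), which end 50 bases before each start.
Hadha and Hadhb: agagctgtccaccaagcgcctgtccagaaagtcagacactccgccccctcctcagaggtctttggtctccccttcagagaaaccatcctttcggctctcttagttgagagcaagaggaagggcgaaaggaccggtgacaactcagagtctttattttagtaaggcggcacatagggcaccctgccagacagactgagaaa

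PPARs with retinoid X receptors bind a direct repeat of AGGTCA with 1 base between (DR1). The sequence AGGTCANAGGTCA, with up to 2 mismatches over its 12 fixed bases and on both strands, was looked for in the 300 bases from 250 before to 50 after the RefSeq start. It was found in 3 of 30 member promoters (10.0%), against 1263 of 33469 promoters of all genes (3.77%). Acadvl had the closest match, with 1 mismatch, as did 0.439% of all promoters. The other members with a match were Echs1 and Adh6. Both rows with symbol Adh6 were under the filter on low values, and this promoter was not assigned to either. The Adh6 match begins at -2 and runs past the start. The 250 bases before the start are given for Acadvl (chr10:55236706-55236955, minus strand) and Echs1 (chr1:204333507-204333756, minus strand), 5′ to 3′ on the gene's strand, with the match in capitals. Counted from the start, the match begins at -17 in Acadvl, on the gene's strand, and at -155 in Echs1, where it reads on the other strand.
Acadvl: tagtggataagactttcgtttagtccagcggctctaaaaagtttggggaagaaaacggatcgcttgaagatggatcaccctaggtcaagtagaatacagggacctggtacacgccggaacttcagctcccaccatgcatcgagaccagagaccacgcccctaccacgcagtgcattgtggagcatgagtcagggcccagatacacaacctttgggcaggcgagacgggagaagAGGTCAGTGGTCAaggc
Echs1: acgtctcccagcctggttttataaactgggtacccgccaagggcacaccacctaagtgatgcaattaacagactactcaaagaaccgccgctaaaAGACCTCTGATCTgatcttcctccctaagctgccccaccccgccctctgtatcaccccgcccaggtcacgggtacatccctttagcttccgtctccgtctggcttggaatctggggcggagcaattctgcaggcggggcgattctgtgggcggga
Neither gene was called, and a match does not show that a receptor binds there.

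Of the 5 peroxisomal enzymes 0 were called by limma and 1 had an unadjusted p under 0.05 (24.1% of all tested genes), with log2 fold changes of -0.17 to 0.04. That gene was Acox3, an acyl-CoA oxidase of branched chains, at 10.2, 10.4 and 11.1 TPM in OM plus EMPA libraries, against 12.3, 11.5 and 12.2 TPM in OM libraries. Its groups do not overlap (log2 fold change -0.17, SE 0.07, 95% interval -0.33 to -0.01, adjusted p = 0.185 from limma). Eci3, a peroxisomal isomerase, was at 77, 83.0 and 75.8 TPM in OM plus EMPA libraries, against 82.2, 87.7 and 82.4 TPM in OM libraries, with overlap. The thiolase Acaa1a and the bifunctional enzyme Ehhadh (3.85 ± 0.435 TPM in OM plus EMPA and 4.31 ± 0.755 TPM in OM libraries, SD, n = 3 each) also overlapped.

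Fatty aldehyde dehydrogenase, which oxidises long-chain aldehydes to fatty acids, was the 1 member called lower. Aldh3a2 was at 40.7, 39.6 and 39.2 TPM in OM plus EMPA libraries, against 49.3, 43.7 and 48.9 TPM in OM libraries, and lies on chromosome 10 from 45908524 to 45949281 (minus strand). The groups do not overlap, and OM replicate 2 is the OM library nearest to them. Aldh3a2 fell by 0.24 on the log2 scale (SE 0.06, 95% interval -0.37 to -0.11, adjusted p = 0.0492 from limma). This is at the edge of the threshold, and the call was lost in 10 of 13 alternatives (adjusted p up to 0.147 from limma), including each single library left out other than OM replicate 2, while the log2 fold change stayed below 0 in all 13 (-0.29 to -0.18). Aldh9a1, which acts in carnitine synthesis, was at 219, 205 and 213 TPM in OM plus EMPA libraries, against 248, 217 and 227 TPM in OM libraries. Aldh7a1, which acts in lysine breakdown, was at 89.3, 89.3 and 84.7 TPM in OM plus EMPA libraries, against 91.9, 87.2 and 87.8 TPM in OM libraries. Both overlap between groups and were not called (log2 fold changes -0.12 and -0.02).

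Adh5, the glutathione-dependent formaldehyde dehydrogenase, was at 64.2, 55.6 and 63.1 TPM in OM plus EMPA libraries, against 62.6, 56.5 and 61.9 TPM in OM libraries, and overlapped. The rows with symbol Adh6 (alcohol dehydrogenases of class I and class V) were under the filter, at 0.08 to 0.88 TPM in OM plus EMPA and 0.06 to 1.08 TPM in OM libraries. The row named Acad10 was at 229, 203 and 209 TPM in OM plus EMPA libraries, against 205, 196 and 206 TPM in OM libraries, with overlap. It spans 7 transcripts and carries the KEGG ortholog of an NAD-dependent aldehyde dehydrogenase, and RefSeq places Aldh2 next to Acad10, so this level cannot be read as that of Acad10 alone. Cyp2u1, a fatty acid hydroxylase, was at 14 ± 0.892 TPM in OM plus EMPA and 15.5 ± 2.09 TPM in OM libraries (SD, n = 3 each).

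**Figure D4:**
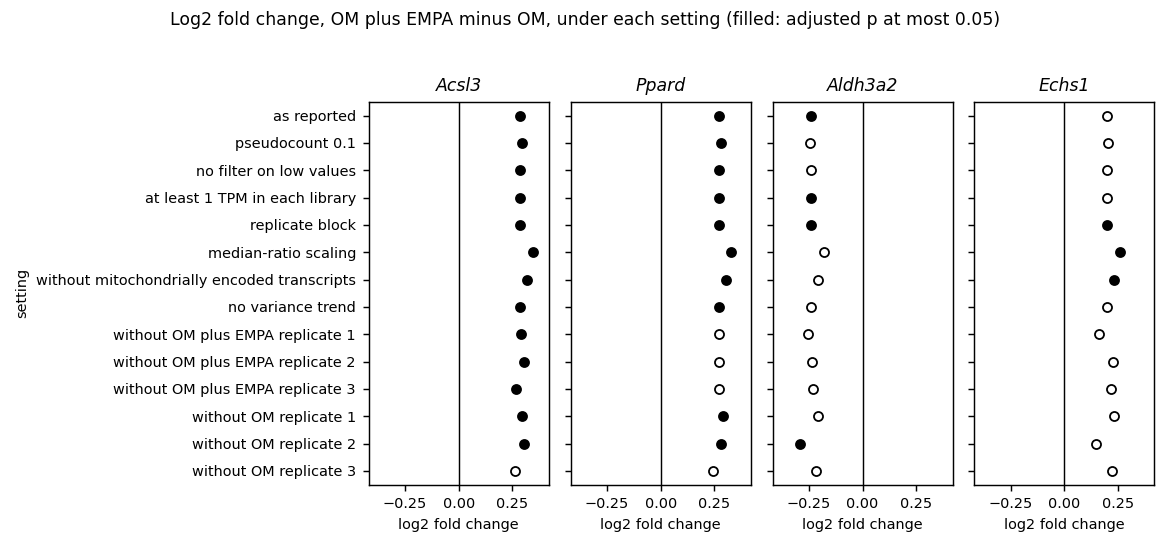
Log2 fold change (OM plus EMPA minus OM) of Acsl3, Ppard, Aldh3a2 and Echs1 as reported and under the 13 alternatives, filled where the adjusted p from limma was at most 0.05. All values keep their sign, while the Aldh3a2 call is open in 10 alternatives and the Echs1 call is filled in 3.

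A wider list of the pathway was read beside the members: 95 symbols for carnitine and acyl transport, electron transfer, ketone bodies, unsaturated and branched substrates, thioesterases, malonyl-CoA control, pyruvate dehydrogenase control, PPAR partners with further metabolic regulators, and PPAR targets outside oxidation. Of these 80 had a row and 79 were tested, and 6 were higher and 2 lower (10.1%, beside 6.92% of all tested genes), with a median log2 fold change of -0.05. Of the 7 PPAR targets outside oxidation 5 were called, 3 higher and 2 lower, and 2 were not called, beside 6.92% of all tested genes called. The list was chosen with earlier results of these data known, so the shares of its genes called are a description only. Angptl4, a secreted inhibitor of lipoprotein lipase, was at 62.2, 58.5 and 52.6 TPM in OM plus EMPA libraries, against 91.2, 89.3 and 82.1 TPM in OM libraries. Lpl, lipoprotein lipase itself, was at 7.01, 6.66 and 7.07 TPM in OM plus EMPA libraries, against 3.65, 4.08 and 4.10 TPM in OM libraries. The inhibitor was lower and the enzyme higher in every OM plus EMPA library. For Angptl4 the log2 fold change was -0.59 (SE 0.07, adjusted p = 0.00467 from limma). Lpl rose by 0.68 (SE 0.09, adjusted p = 0.00608 from limma). The Angptl4 and Lpl calls held in each of the 13 alternatives.

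Vldlr, which takes up triglyceride-rich lipoproteins, was at 62.5, 79.0 and 69.5 TPM in OM plus EMPA libraries, against 40.7, 53.3 and 40.7 TPM in OM libraries (log2 fold change 0.64, adjusted p = 0.0231 from limma). Ucp2, a mitochondrial carrier, was at 24.7, 25.1 and 23.0 TPM in OM plus EMPA libraries, against 17.8, 19.4 and 17.8 TPM in OM libraries (0.39, adjusted p = 0.0137 from limma). Plin2, which coats lipid droplets, was at 102, 98.0 and 103 TPM in OM plus EMPA libraries, against 141, 118 and 122 TPM in OM libraries (-0.33, adjusted p = 0.0306 from limma). None of the 3 overlaps between groups. Leaving out single libraries ended the Vldlr call for replicates 2 and 3 of OM plus EMPA and 1 and 3 of OM (adjusted p up to 0.0768 from limma), the Ucp2 call for replicate 2 of OM plus EMPA and 3 of OM (up to 0.0575 from limma), and the Plin2 call for each OM plus EMPA library and replicate 3 of OM (up to 0.102 from limma). Without the variance trend the Vldlr and Plin2 calls were also lost (adjusted p = 0.0551 and 0.073 from limma), and median-ratio scaling ended that of Plin2 (adjusted p = 0.0521 from limma).

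Of the 3 ketone body enzymes in the list, Oxct1 and Bdh1, genes of ketone body use, were called higher and 1 was not called. Over all tested genes 2.06% were called higher. Oxct1, the mitochondrial enzyme that activates acetoacetate, was at 76.9, 70.5 and 69.6 TPM in OM plus EMPA libraries, against 53.5, 57.7 and 54.0 TPM in OM libraries. Bdh1, which interconverts acetoacetate and β-hydroxybutyrate, was at 71.3, 64.7 and 70.2 TPM in OM plus EMPA libraries, against 53.7, 49.2 and 56.2 TPM in OM libraries. The groups do not overlap in either. Oxct1 rose by 0.39 (SE 0.06, adjusted p = 0.00876 from limma). Bdh1 rose by 0.37 (SE 0.06, adjusted p = 0.0163 from limma). The Bdh1 call ended without OM plus EMPA replicate 1 or 3 (adjusted p = 0.056 and 0.0545 from limma).

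Among the 13 transport genes 1 was called (7.69%), close to the 6.92% of all tested genes. This was the lysosomal cobalamin transporter Abcd4, called higher. Its level was 24.3, 23.0 and 20.8 TPM in OM plus EMPA libraries, against 16.0, 18.7 and 14.7 TPM in OM libraries. Abcd4 rose by 0.44 (adjusted p = 0.0381 from limma). Its call ended on omitting any OM plus EMPA library, or replicates 1 or 3 of OM (adjusted p up to 0.115 from limma), and also without the variance trend (adjusted p = 0.0688 from limma). Dbi, the acyl-CoA binding protein and the most abundant of the list, was at 719, 733 and 685 TPM in OM plus EMPA libraries, against 672, 618 and 633 TPM in OM libraries, without overlap but not called (0.15, adjusted p = 0.111 from limma). The next most abundant did not separate the groups. Pdha1, of the pyruvate dehydrogenase complex, was at 192 ± 5.64 TPM in OM plus EMPA and 186 ± 6.5 TPM in OM libraries. Dld, of the same complex, was at 144 ± 1.25 TPM in OM plus EMPA and 144 ± 3.51 TPM in OM libraries. Hsd17b12, which acts in fatty acid elongation, was at 127 ± 1.9 TPM in OM plus EMPA and 131 ± 5.56 TPM in OM libraries. For Hsd17b10, which acts in isoleucine breakdown, the level was 128 ± 11.7 TPM in OM plus EMPA and 126 ± 13.7 TPM in OM libraries (SD, n = 3 for each group of these 4 genes).

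**Figure D5:**
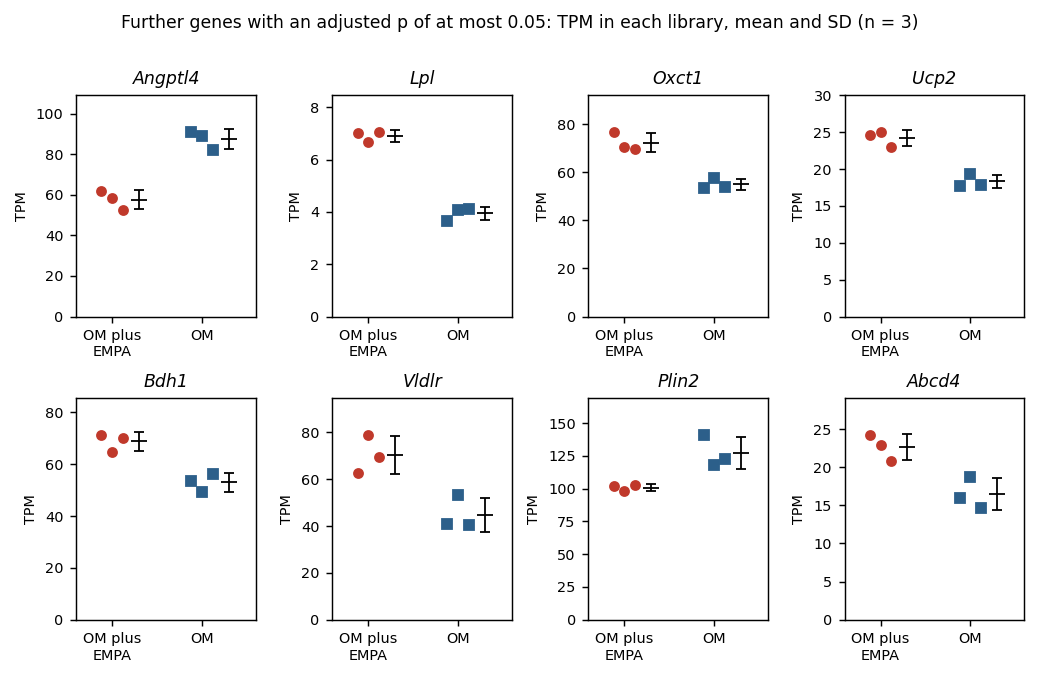
TPM in each library, with mean and SD (n = 3), of the 8 genes of the wider list with an adjusted p of at most 0.05 (OM plus EMPA circles left, OM squares right, axes from 0). Angptl4 and Plin2 are lower in the OM plus EMPA group and the other 6 are higher, with no overlap between groups in any panel. The genes shown were chosen because they were called, so this separation largely follows from the choice. Without overlap, 7.85% of all tested genes were higher and 22.5% lower.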

How the data were processed

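The deposited table lists TPM for 13526 genes in 6 libraries, computed by the authors. It also lists the authors' own comparison (log2 fold change, p-value and adjusted p-value), which was not used. A second table repeats 181 of these genes with identical values and was not used. Tools named in the submitters' processing notes are DESeq2, RSEM, HISAT2 2.0.5 and fastp, with no role stated. As for the genome build, it was not given in the sources used here. TPM keep no depth and are shares of a total, so a change in abundant transcripts shifts the others. Columns holding values of an unknown sample numbered 0.

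Members and lists were chosen with earlier results of these data known. Genes averaging 1 TPM or more were tested with limma 3.58.1 (R 4.3.3) on log2(TPM + 1), with the group as the only term and a variance trend, Benjamini-Hochberg adjustment over all 12564 genes and a threshold of 0.05. The script was tested on simulated data. Family shares were compared by exact permutation with scipy 1.17.1. Python 3.11.15, pandas 2.3.3, numpy 2.4.6 and matplotlib 3.10.9 were also used. Values per library are given for called members, the symbols added to the KEGG map, the 10 members highest in mean TPM and the member of each role with the smallest p, and of the wider list for called genes and, per library or as group means, the 5 highest in mean TPM. Other genes were named for their role, and the values of some genes are not reported here. Alternatives were a pseudocount of 0.1, no filter, 1 TPM in every library, a replicate block, median-ratio scaling, TPM without mitochondrially encoded transcripts, no variance trend, an adjusted p of 0.1 and each library left out.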

Additional observations from a re-analysis of the deposited data

How the results depend on the processing

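The log2 fold changes of 23 of the 34 tested members kept their sign in all 13 alternatives and 11 did not, all of the 11 within a log2 fold change of 0.1 as reported. Members called lower numbered 1 as reported, 0 with no filter on low values, a pseudocount of 0.1, median-ratio scaling, no mitochondrially encoded transcripts or no variance trend, and 2 at an adjusted p of 0.1. Over all tested genes, 393 were higher and 380 lower after median-ratio scaling, 154 and 366 without the variance trend, and 460 and 1090 at an adjusted p of 0.1. The wider list had 1 gene lower after median-ratio scaling and without the variance trend, and without the trend 4 genes higher in place of 6. The median log2 fold change of the members was -0.003 after median-ratio scaling and -0.031 without mitochondrially encoded transcripts, and that of the wider list 0.008 and -0.020. Median-ratio scaling turned Acsl4 (0.009), Acadvl (0.008), Aldh7a1 (0.039), Hadha (0.050) and Hsd17b12 (0.025) to above 0, and leaving out mitochondrially encoded transcripts turned Aldh7a1 (0.011) and Hadha (0.022). Leaving out single libraries gave 80 to 216 genes higher and 245 to 438 lower over all tested genes, 0 to 2 members higher and 0 to 1 lower, and 3 to 6 genes of the wider list higher and 1 to 2 lower, with medians of -0.077 to -0.035 for the members and -0.059 to -0.025 for the wider list; such fits rest on 5 libraries. It moved the sign of Acaa1a (-0.002 to 0.087), Acaa2 (-0.024 to 0.184), Acadm (-0.014 to 0.051), Acadsb (-0.012 to 0.125), Adh5 (-0.032 to 0.078), Aldh7a1 (-0.034 to 0.006), Dld (-0.012 to 0.023), Hadha (-0.034 to 0.036), Hadhb (-0.003 to 0.035) and Hsd17b10 (-0.065 to 0.091). The replicate numbers were not taken to pair the libraries: same-numbered libraries deviated together with correlations of 0.0979, 0.162 and 0.0575, although each correlated best with its own number. With the replicate block 449 genes were higher and 951 lower, and 3 members were higher and 2 lower, Echs1 (adjusted p = 0.029 from limma) and Acsl1 (adjusted p = 0.039 from limma) joining the called members. Where nothing else is said, the cause of a change was not tested. TPM keep no depth, so no limit by depth can be given.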

Other observations

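Partners and corepressors of the PPARs, and further metabolic regulators listed with them, were read from the wider list. Of 18 with a row 1 fell under the filter, at a mean of 0.335 TPM, with all OM plus EMPA libraries above all OM libraries. Of 17 tested genes 0 were called by limma, 3 had an unadjusted p under 0.05 (24.1% of all tested genes), and 15 had a log2 fold change below 0, as had 65.1% of all tested genes (median -0.11, range -0.20 to 0.04, against a median of -0.05 over all tested genes). After median-ratio scaling 14 of the 17 were below 0, with a median of -0.051. In 9 of the 17 all OM plus EMPA libraries lay below all OM libraries, as in 22.5% of all tested genes. The coactivator Ncoa3 was at -0.20 (adjusted p = 0.16 from limma) and the corepressor Ncor1 at -0.13 (adjusted p = 0.174 from limma). The retinoid X receptor genes Rxra and Rxrb, which pair with the PPARs, were at -0.06 and -0.08.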
